A study of Mus musculus with 36 samples.

Results

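Retinal gene expression under 2 inhibitors of the oxygen-sensing hydroxylases, roxadustat and DMOG, is compared here directly in 12 libraries, 6 per inhibitor, of the 36 in the series. They were taken as the roxadustat and the DMOG columns of the table labelled liver, whose contents are those of a retina. Total RNA of C57BL/6 mice was depleted of ribosomal RNA and sequenced. The groups were mice given PBS (vehicle), DMOG or roxadustat, with 6 libraries each per tissue label, and the 6 PBS libraries of the same table served as reference. No dose, interval, route or age is given in the labels, nor whether each replicate is a separate animal. Xist and Y-linked RNA marked 3 of 6 PBS, 2 of 6 DMOG and 3 of 6 roxadustat libraries as female and the others as male, so each group came from more than 1 animal. How many animals each group holds is unknown, and a p-value reflects library-to-library spread only. The doses of both compounds, and whether they match, are therefore unknown, and the comparison is between the treatments as given.

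HIF transcription factors are made continuously and, in the presence of oxygen, are marked for destruction by prolyl hydroxylases that use oxygen, iron and 2-oxoglutarate. Low oxygen or a hydroxylase inhibitor leaves HIF in place, and it then binds hypoxia response elements and raises genes for glycolysis, lactate export, blood vessel growth and red cell production. DMOG is a cell-permeable ester of oxalylglycine, a close analogue of 2-oxoglutarate that acts on many enzymes of that cofactor, whereas roxadustat is an isoquinoline glycine derivative developed for the HIF prolyl hydroxylases. The retina depends heavily on glucose and releases lactate even when oxygen is plentiful, and photoreceptors hold most of its glycolytic activity. The title of the series places the work in retinopathy of prematurity, in which the growth of retinal vessels is first arrested and then excessive.

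The tissue label of the table does not match its contents. Rod arrestin (Sag) stood at 2588 FPKM (fragments per kilobase of transcript, scaled to library size; range 2166 to 3683) as the median of its 18 libraries, and Apoa1, an abundant liver transcript, had 0.278 FPKM (0.0366 to 0.516). The summed rod list exceeded the summed liver list in 18 of 18 libraries. The libraries labelled liver are therefore described as a retina transcriptome. Their FPKM totals were 542785 to 617853, and read depth is not given by the files. Relative depth was read from the commonest ratio of low values to those of PBS replicate 1, divided by the mean over libraries. It was 1.08 ± 0.143 (SD, n = 6) for DMOG, 1.08 ± 0.147 for roxadustat and 0.842 ± 0.0287 for PBS. Lens crystallin RNA, from a neighbouring tissue, set libraries apart: the 23 genes of the lens list made up 0.978% to 10.3% of summed FPKM with PBS, 0.015% to 0.393% with DMOG and 0.111% to 4.94% with roxadustat. Roxadustat replicate 1 held that highest value, and the other 5 roxadustat libraries summed to 681 to 2772 FPKM of lens genes.

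The promoters below show the DNA letters that HIF is known to read. They are those of the 4 called genes of the HIF target list with the largest rise. They belong to Slc16a3 (the lactate exporter MCT4), Ak4 (a mitochondrial adenylate kinase), Pdk1 (pyruvate dehydrogenase kinase) and Pfkl (phosphofructokinase, liver type). Each covers 250 bases before and 50 after the annotated start, written 5′ to 3′ along the gene, from RefSeq on the build GRCm38.p6. Capitals mark ACGTG or GCGTG on either strand, the core of the hypoxia response element, with overlapping matches joined.
Slc16a3 promoter (chr11:120948817-120949116, + strand): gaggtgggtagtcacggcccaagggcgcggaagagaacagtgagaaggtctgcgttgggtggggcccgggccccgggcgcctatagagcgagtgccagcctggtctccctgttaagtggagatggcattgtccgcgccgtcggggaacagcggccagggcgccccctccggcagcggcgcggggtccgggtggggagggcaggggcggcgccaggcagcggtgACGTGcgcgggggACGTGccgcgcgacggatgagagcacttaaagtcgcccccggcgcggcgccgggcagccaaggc
Ak4 promoter (chr4:101419039-101419338, + strand): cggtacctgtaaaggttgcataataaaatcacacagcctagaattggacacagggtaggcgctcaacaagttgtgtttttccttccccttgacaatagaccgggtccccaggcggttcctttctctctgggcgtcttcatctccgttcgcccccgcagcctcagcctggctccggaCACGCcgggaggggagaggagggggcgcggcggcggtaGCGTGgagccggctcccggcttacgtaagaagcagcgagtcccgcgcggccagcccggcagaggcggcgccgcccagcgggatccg
Pdk1 promoter (chr2:71872974-71873273, + strand): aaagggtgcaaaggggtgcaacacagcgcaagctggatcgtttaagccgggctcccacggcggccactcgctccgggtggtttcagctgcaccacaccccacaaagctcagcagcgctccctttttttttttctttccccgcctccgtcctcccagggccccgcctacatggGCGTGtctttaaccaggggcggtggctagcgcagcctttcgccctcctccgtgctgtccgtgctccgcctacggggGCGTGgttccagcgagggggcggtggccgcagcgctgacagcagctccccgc
Pfkl promoter (chr10:78009758-78010057, - strand): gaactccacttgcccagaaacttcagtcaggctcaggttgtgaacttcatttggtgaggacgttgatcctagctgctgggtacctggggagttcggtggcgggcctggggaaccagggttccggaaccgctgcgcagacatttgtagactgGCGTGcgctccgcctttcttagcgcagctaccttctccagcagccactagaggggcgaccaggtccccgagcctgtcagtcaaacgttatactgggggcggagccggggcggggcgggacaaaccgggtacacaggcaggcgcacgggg
Of 41 HIF target genes tested, 35 matched a promoter in this table. A match to ACGTG or GCGTG was present in 16 of the 17 matched targets called higher with roxadustat than with DMOG (94.1%) and in 13 of the 18 not called (72.2%). By comparison, it was present in 43.8% of all 27025 promoters and in 63.2% of the 9714 promoters of genes tested. At least 2 matches were present in 14 of the 17, 9 of the 18, 17.4% and 30.8% of these sets in the same order. Outside the HIF target list, the promoter of Dio3, the gene with the largest rise of the contrast, held 0 matches, and that of Grhpr held 1. A match is a description of the letters and shows neither binding nor a cause.

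Retinas given roxadustat expressed the HIF-driven metabolic genes at higher levels than retinas given DMOG, while few retinal cell type genes passed the test. Dio3, the deiodinase that inactivates thyroid hormone, showed the largest rise, from a median of 1.34 to 16.4 FPKM. Slc16a3, Cox8b and Ak4 came next, and Pdk1 and Pfkl were also among the 15 largest rises named by rule. The genes that fell did so by small amounts, led by the adhesion gene Vcam1. A gene was called at a Benjamini-Hochberg adjusted p under 0.05 from limma, fitted on log2(FPKM + 0.5) over all 13779 genes averaging 0.5 FPKM or more, and every log2 difference below is on that scale, which understates changes of low genes. Between the inhibitors 181 genes (1.31%) were called, 135 higher (0.98%) and 46 lower (0.334%) with roxadustat, and 1503 (10.9%) had an unadjusted p under 0.05. Of the 135, 11 reached a log2 change of 1 and 87 changed by less than 1.5-fold. All 46 lower genes changed by less than 1.5-fold. In 1.2% of all genes every roxadustat library lay above every DMOG library, in 0.755% below, and in 1.95% either way; 140 of the 181 called genes were of this kind. For such a gene the two-sided exact permutation test over all assignments of the 12 libraries gives p = 0.00216, the smallest it allows. The median log2 difference of all genes tested was -0.011.

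**Figure D1:**
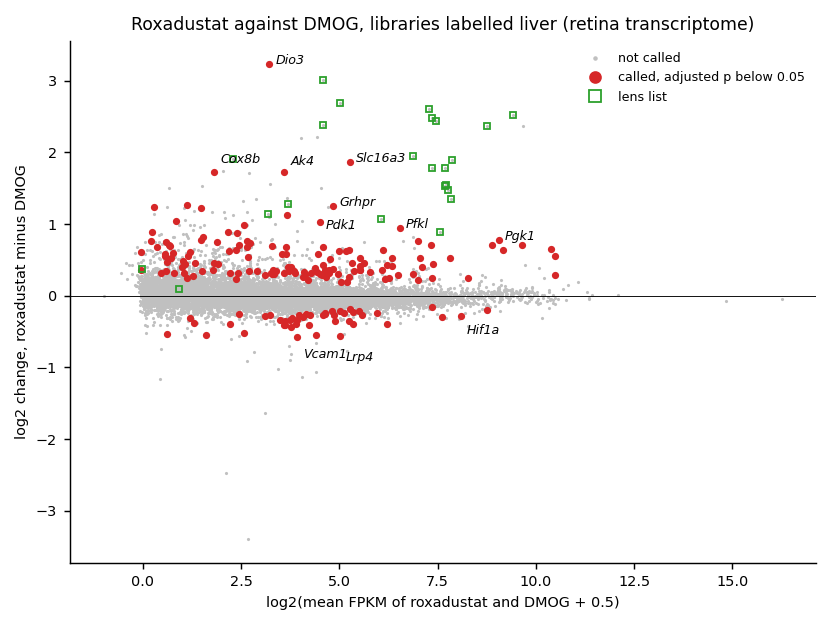
Each point is 1 of 13779 genes, with the mean level of both inhibitor groups on the x axis (log2 FPKM + 0.5) and the log2 difference, roxadustat minus DMOG, on the y axis. The 181 called genes are red and the 23 lens genes are green squares, which lie high but were not called; Dio3 and Slc16a3 lie above most others, and the lower genes stay close to 0.

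For the HIF target list, 19 of 41 members tested rose with roxadustat over DMOG and 0 fell, where 0.98% of all genes tested rose. The median difference of the 41 was 0.40, and 40 of the 41 were positive. In 15 of the 41 every roxadustat library lay above every DMOG library (background 1.2%). Summed over the list, PBS libraries held 2360 to 2623 FPKM, DMOG libraries 2783 to 3423 and roxadustat libraries 3803 to 4677, so the 3 groups did not overlap. Such a sum mostly reflects abundant members, among them Ldha, and not each gene of the list. The list's count was 20 without DMOG replicate 1, the library that stood highest in its group, and 14 to 20 over all fits leaving out 1 library. With the lens level or the pigment epithelium level of each library as a term, it was 16 and 13. HIF target Car9 did not pass the filter on low values.

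Slc16a3 exports lactate from cells with high glycolysis. Its level was 4.28, 9.26 and 13.7 FPKM (lowest, median, highest of 6) with PBS, 12.2, 15.4 and 24.6 FPKM with DMOG, and 45.9, 53.5 and 82.0 FPKM with roxadustat. All 6 roxadustat libraries lay above all DMOG libraries, with replicates 3 and 4 highest. The log2 difference was 1.87 ± 0.24 (SE), adjusted p = 0.000202 by limma. Ak4, which balances adenine nucleotides in mitochondria, had a median of 3.36 FPKM (1.56 to 5.25) with PBS, 4.48 (3.93 to 9.71) with DMOG and 17.9 (12.9 to 23.0) with roxadustat. The groups given the inhibitors did not overlap, and the difference was 1.72 ± 0.25 (adjusted p = 0.00067, limma).

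Pdk1, a kinase that holds pyruvate back from the mitochondrial citrate cycle, had a median of 11.3 FPKM (6.95 to 12.6) with PBS, 14.7 (10.6 to 16.1) with DMOG and 31.6 (22.4 to 36.8) with roxadustat. It rose by 1.03 ± 0.15 over DMOG (adjusted p = 0.000595, limma), with no overlap. Bnip3 and Bnip3l, receptors that direct mitochondria to autophagy, rose by 0.77 ± 0.17 and 0.30 ± 0.06. These were the 2 of 14 mitochondrial quality control genes that were called (background 0.98%), and the list's median was 0.003. Both are also on the HIF target list. The call of Bnip3 was lost in 8 of the 18 fits that leave out 1 library and with the lens term (adjusted p = 0.0707, limma). With the pigment epithelium term neither was called (0.115 for Bnip3 and 0.0512 for Bnip3l). None of 30 listed oxidative phosphorylation genes was called by limma. Their median was -0.07, and 2 of the 30 were positive. An unadjusted p under 0.05 was seen for 10 (10.9% of all genes), all lower with roxadustat. In 3 of the 30 every roxadustat library lay below every DMOG library (0.755% of all genes). Outside the list, the respiratory subunits Cox8b (1.73 ± 0.25) and Ndufb11 (0.24 ± 0.06) were called higher. The call of Ndufb11 was lost in 9 of 18 fits leaving out 1 library and with either term (adjusted p of 0.0549 and 0.122, limma).

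**Figure D2:**
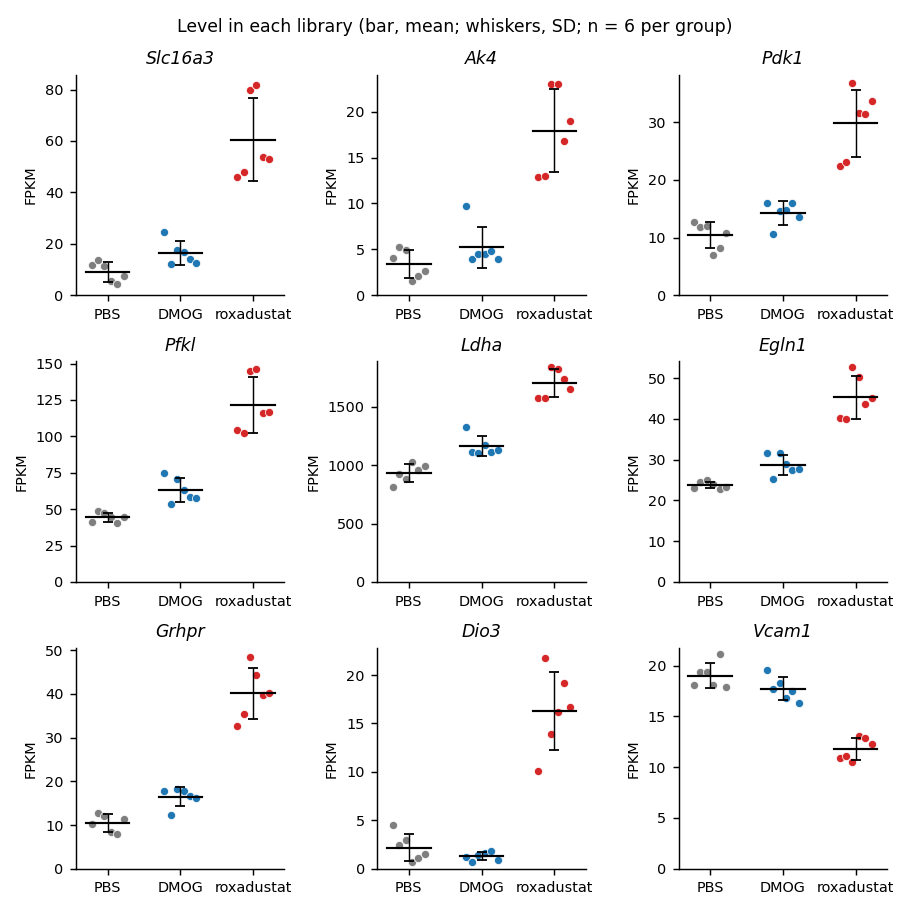
FPKM of 9 genes in each library by treatment (points, 6 per group in order of replicate number; bar, mean; whiskers, SD), each panel starting at 0. Roxadustat libraries lie above all DMOG libraries in every panel except Vcam1, where they lie below, and DMOG libraries lie above PBS for Pfkl and Ldha but not for Dio3.

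Many glycolysis genes rose as well. Of 20 enzymes and regulators, 11 rose with roxadustat over DMOG and 0 fell (0.98% of all genes rose), with a median of 0.49. Some are also HIF targets, and both lists together held 25 different called genes. Summed levels were 5473 to 6478 FPKM with PBS, 6637 to 8407 with DMOG and 8934 to 11678 with roxadustat, and again the groups did not overlap. The count was 13 without DMOG replicate 1, and 10 and 9 with a lens or a pigment epithelium term.

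Along the pathway, the glucose transporter Slc2a1 rose by 0.53 ± 0.11 and hexokinase Hk2 by 0.73 ± 0.15, whereas Hk1, the main hexokinase of neurons, had 125 FPKM (median) with DMOG and 129 with roxadustat, a difference of -0.07 (95% interval -0.34 to 0.20). Pfkl, the committed step, was at 44.4 FPKM (40.4 to 48.5) with PBS, 60.8 (53.2 to 74.6) with DMOG and 117 (103 to 146) with roxadustat. Its difference of 0.94 ± 0.09 (adjusted p = 1.26e-05, limma) separated the inhibitor groups completely, and the platelet isozyme Pfkp rose by 0.63 ± 0.13. With the pigment epithelium term the calls of Slc2a1 and Pfkp were lost (adjusted p of 0.068 and 0.0806, limma), and with the lens term that of Slc2a1 (0.0734). The muscle isozyme Pfkm did not pass the test (-0.08, 95% interval -0.27 to 0.10).

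In the lower part of the pathway, Aldoa (aldolase) had medians of 1013 FPKM with DMOG and 1515 FPKM with roxadustat, and rose by 0.65 ± 0.08. Tpi1, Pgk1, Pgam1 and Gpi1, which encode triosephosphate isomerase, phosphoglycerate kinase, phosphoglycerate mutase and glucose phosphate isomerase, rose by 0.71, 0.78, 0.64 and 0.52. Ldha, which turns pyruvate into lactate, was at 941 FPKM (817 to 1024) with PBS, 1125 (1102 to 1328) with DMOG and 1700 (1577 to 1839) with roxadustat. It rose by 0.55 ± 0.06 over DMOG (adjusted p = 6.43e-05, limma) without overlap. Gapdh rose by 0.29 ± 0.06, a call lost in 6 of 18 fits leaving out 1 library and with the lens or the pigment epithelium term (adjusted p of 0.072 and 0.0914, limma). Several of these enzymes have processed pseudogenes that can share reads, so single levels are uncertain.

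Isozymes of the same steps did not all move. Eno1 (0.43, 95% interval 0.21 to 0.65, adjusted p = 0.0509) and Pkm2, the file's name for pyruvate kinase (0.25, interval 0.12 to 0.38, adjusted p = 0.0599), missed the limma threshold. Differences for the neuronal enolase Eno2 (-0.11, interval -0.32 to 0.10) and the heart lactate dehydrogenase Ldhb (-0.06, interval -0.18 to 0.06) were near 0.

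Against PBS, roxadustat called 323 genes (2.34%; 233 higher, 1.69%) and DMOG 147 (1.07%; 51 higher, 0.37%, and 96 lower, 0.697%). Both comparisons share the PBS libraries, and the PBS libraries held the most lens RNA. With the lens level as a term, the counts were 106 and 1, and the part of lens RNA in them was not tested further. Every DMOG library had a lower lens share (at most 0.393%) than every PBS library (at least 0.978%). For DMOG against PBS, lens RNA and treatment therefore cannot be told apart by this term. Roxadustat libraries other than replicate 1 (4.94%) also lay below every PBS library, at 0.111% to 0.470%. The same limit therefore largely holds for roxadustat against PBS. Of the 41 HIF targets, 27 rose over PBS with roxadustat and 6 with DMOG, with median differences of 0.53 and 0.19. The 6 were Pfkl, Ldha, Kdm3a, Ddit4, Ankrd37 and Tfrc. In the glycolysis list 13 rose with roxadustat and 5 with DMOG, with medians of 0.73 and 0.26.

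Some targets stood well above PBS with both inhibitors and did not pass the test between them. Ankrd37, an ankyrin repeat gene known for its HIF response, exceeded PBS by 0.69 ± 0.11 with DMOG and by 1.00 ± 0.11 with roxadustat, and the inhibitors differed by 0.31 (95% interval 0.08 to 0.54, adjusted p = 0.252). Tfrc, the transferrin receptor, exceeded PBS by 0.42 ± 0.08 and 0.51 ± 0.08, with a difference of 0.08 (interval -0.09 to 0.26). By contrast, Slc2a1 and Hk2 were called between the inhibitors and lay near PBS with DMOG. From PBS, Slc2a1 was at 0.02 ± 0.11 with DMOG and 0.55 ± 0.11 with roxadustat, and Hk2 at -0.07 ± 0.15 and 0.66 ± 0.15. For Ndrg1, Rora, Gbe1, Wsb1 and Cited2 the differences between inhibitors lay between -0.02 and 0.03, and none was called.

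**Figure D3:**
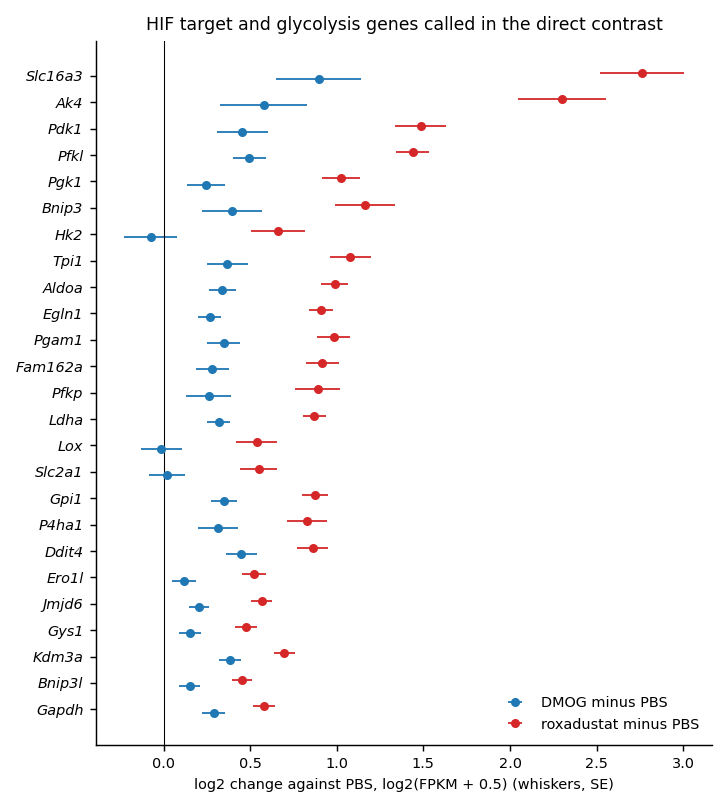
For the 25 HIF target and glycolysis genes called between the inhibitors, points give the log2 difference from PBS on the x axis (whiskers, SE) for DMOG in blue and roxadustat in red, with both series sharing the 6 PBS libraries. Roxadustat lies to the right of DMOG in each row because the genes were chosen by that contrast; DMOG lies near 0 for Slc2a1, Hk2 and Lox.

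Among the oxygen-sensing genes themselves, Egln1, the main prolyl hydroxylase and itself a HIF target, was the member that rose. It was at 23.6 FPKM (22.9 to 25) with PBS, 28.3 (25.3 to 31.6) with DMOG and 44.3 (40.0 to 52.6) with roxadustat. The inhibitor groups did not overlap, and the difference was 0.64 ± 0.07 (adjusted p = 1.94e-05, limma). Hif1a fell: its level was 290 FPKM (283 to 300) with PBS, 301 (279 to 307) with DMOG and 242 (216 to 280) with roxadustat, a difference of -0.28 ± 0.05 (adjusted p = 0.00842, limma). The highest roxadustat library reached the lowest DMOG library, and after rescaling to an equal total the adjusted p was 0.0504.

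The other 8 of the 10 tested sensors and subunits did not pass. The difference was 0.01 for Egln2 (95% interval -0.10 to 0.13), 0.19 for Egln3 (-0.10 to 0.48), -0.09 for the asparagine hydroxylase Hif1an (-0.19 to 0.02) and 0.11 for the ubiquitin ligase subunit Vhl (0.04 to 0.18, adjusted p = 0.184). It was -0.19 for Epas1, which encodes HIF-2 alpha (-0.42 to 0.05), and -0.01 for the partner subunit Arnt (-0.16 to 0.14). Egln3 was at low level, with medians of 1.74 FPKM for DMOG and 2.06 FPKM for roxadustat.

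Vegfa, the main vessel growth factor, was at 24.2 FPKM (16.0 to 33.4) with PBS, 28.4 (21.9 to 42.1) with DMOG and 40.7 (31.1 to 54.0) with roxadustat. The inhibitor groups overlapped, and the difference of 0.49 (95% interval 0.13 to 0.85) had an adjusted p of 0.253 by limma. Roxadustat exceeded PBS by 0.78 ± 0.17 (adjusted p = 0.0181). None of 26 angiogenic factors and receptors was called between the inhibitors by limma, 2 had an unadjusted p under 0.05, and their median was 0.07. Epo, the red cell hormone, stayed below the filter, with at most 0.426 FPKM in a library.

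Some enzymes that share the cofactor of the HIF hydroxylases were among the higher genes, and so was Lox, an enzyme of another kind. Of the called genes in this paragraph, Kdm3a, Jmjd6, P4ha1 and Lox are on the HIF target list and were already counted there. Of 22 dioxygenases of chromatin and RNA, 4 rose (background 0.98%) and 0 fell, and the list's median was 0.008. These were the histone demethylases Kdm3a (0.31 ± 0.06) and Kdm4b (0.30 ± 0.06), the hydroxylase Jmjd6 (0.36 ± 0.06) and the RNA demethylase Alkbh5 (0.34 ± 0.05). Of 19 collagen-modifying and matrix genes with a median of 0.17, 4 rose (background 0.98%): the collagen hydroxylases P4ha1 (0.51 ± 0.12), Plod1 (0.35 ± 0.08) and Plod2 (0.54 ± 0.12) and the lysyl oxidase Lox (0.55 ± 0.12). Leaving out 1 library ended the call in 6, 3, 5 and 6 of 18 fits, in this order. With the pigment epithelium term all 4 calls were lost (adjusted p of 0.0871 to 0.12, limma), and with the lens term those of P4ha1, Plod1 and Plod2 (0.145 to 0.191). Roxadustat replicate 1, at 1.18 FPKM of Lox, lay within the DMOG range of 1.14 to 1.57.

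Dio3, which was not on the HIF target list used here, showed the widest separation. Its level was 0.658, 1.97 and 4.55 FPKM (lowest, median, highest) with PBS, 0.723, 1.34 and 1.79 FPKM with DMOG and 10.1, 16.4 and 21.7 FPKM with roxadustat. The difference between inhibitors was 3.23 ± 0.28 (adjusted p = 2.3e-06, limma), and DMOG differed from PBS by -0.45 ± 0.28. Dio3os, transcribed from the opposite strand at the same locus, rose by 1.22 ± 0.16, from a median of 1.17 to 3.41 FPKM. The library kit keeps strand, but whether the counting used it is not given in the sources used here, so their reads may not be fully told apart. Thrb, the thyroid hormone receptor of cones, rose by 0.43 ± 0.07, with medians of 19.5 and 26.4 FPKM and no overlap. It was the 1 gene of 14 on the cone list that was called (background 0.98%), and the list's median was -0.03.

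Grhpr, a reductase of glyoxylate and hydroxypyruvate, was at 10.8 FPKM (7.89 to 12.6) with PBS, 17.2 (12.2 to 18.3) with DMOG and 40.0 (32.5 to 48.4) with roxadustat. It exceeded PBS with DMOG by 0.64 ± 0.12 and with roxadustat by 1.90 ± 0.12, and the inhibitors differed by 1.25 ± 0.12 (adjusted p = 8.5e-06, limma). The axonemal dynein Dnahc9 had medians of 0.777, 0.688 and 2.42 FPKM with PBS, DMOG and roxadustat and rose by 1.26 ± 0.11. Csn3, a casein gene, had 0.582, 0.591 and 1.95 FPKM and rose by 1.04 ± 0.12. Neither differed from PBS with DMOG beyond the test.

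Some named genes had DMOG libraries below PBS. Of the 135 higher genes 64 did, where 45.7% of all genes tested did, and 10 of the 64 were called lower than PBS; the DMOG libraries enter both contrasts. Lens and pigment epithelium genes had the same order, with medians of -4.62 and -0.33 for DMOG against PBS and 1.79 and 0.49 for roxadustat against DMOG. With either level as a term, Cox8b, Tmem26, Emid2, Wnt16 and Calml4 were still called between the inhibitors. Cox8b, a heart and muscle form of a cytochrome oxidase subunit, was at 3.22 FPKM (1.92 to 4.54) with PBS, 1.07 (0.292 to 2.72) with DMOG and 5.06 (3.47 to 5.52) with roxadustat. DMOG lay -1.17 ± 0.25 from PBS (adjusted p = 0.032, limma), and roxadustat exceeded DMOG by 1.73 ± 0.25 without overlap. Tmem26 had medians of 5.03, 3.47 and 7.32 FPKM, with DMOG at -0.44 ± 0.08 from PBS, roxadustat at 0.54 ± 0.08 and a difference of 0.98 ± 0.08 between them. Emid2 (collagen XXVI), Wnt16 (a Wnt ligand) and Calml4 (a calmodulin-like protein) rose by 0.89 ± 0.14, 0.89 ± 0.17 and 0.88 ± 0.13 over DMOG, and neither inhibitor passed the test against PBS for them. Penk, the enkephalin precursor, rose by 1.12 ± 0.24 (adjusted p = 0.0202, limma), a call lost without DMOG replicate 2 or 4 or roxadustat replicate 2 or 5. With the lens term the adjusted p of Penk was 0.111, and with the pigment epithelium term 0.0852.

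The genes that fell were smaller in effect. Vcam1, a cell adhesion molecule, was at 18.7 FPKM (17.9 to 21.2) with PBS, 17.6 (16.4 to 19.6) with DMOG and 11.7 (10.5 to 13.1) with roxadustat. All roxadustat libraries lay below all others, and the difference from DMOG was -0.57 ± 0.06 (adjusted p = 2.13e-05, limma). Sema7a, a membrane-bound guidance protein, had medians of 21.4, 24.1 and 17.2 FPKM and differed by -0.54 ± 0.07. Lrp4, a receptor of synapse formation, had medians of 32.2, 38.2 and 24.7 FPKM and differed by -0.57 ± 0.11.

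Ion channels and signalling proteins were also among the named lower genes. Chrna5, a nicotinic receptor subunit, differed by -0.52 ± 0.09, and Kcnj6, an inward rectifier potassium channel, by -0.38 ± 0.07. Dscam, which spaces retinal neurons, differed by -0.41 ± 0.06 and the kinases Mknk1 and Camk2b by -0.41 ± 0.07 and -0.39 ± 0.07. For Nipal1, a magnesium transporter relative, DMOG lay above PBS by 0.42 ± 0.09 and roxadustat was at -0.11 ± 0.09, and the inhibitors differed by -0.53 ± 0.09. Of the 46 lower genes, 18 were also called lower than PBS with roxadustat (0.653% of all genes). Another comparison called 6 of the 46 higher than PBS with DMOG (0.37% of all genes). The same roxadustat and DMOG libraries enter these contrasts and the one that chose the 46, which raises both counts.

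Less firm calls among the lower genes were Col5a3 (a collagen chain, -0.55 ± 0.12), Psd2 (-0.43 ± 0.09), Slc26a2 (a sulphate transporter, -0.41 ± 0.09), Cplx2 (a complexin of the synapse, -0.40 ± 0.09), Eps8 (-0.40 ± 0.09) and Mobkl2c (-0.39 ± 0.09). Leaving out 1 library ended the call in 8, 2, 6, 6, 12 and 6 of 18 fits, in this order. For Psd2 the libraries were DMOG replicate 6 and roxadustat replicate 5. All 6 calls were lost with the lens term (adjusted p of 0.109 to 0.225). Over all 181 genes, 116 were called in each of the 18 fits.

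Few genes that mark the retinal cells passed the test between the inhibitors. None of the 26 rod, 19 bipolar, 17 amacrine, 8 horizontal, 15 ganglion cell or 17 Mueller glia genes tested was called by limma, with list medians between -0.13 and -0.01. Unadjusted p-values under 0.05 were seen for 5, 6, 1, 1, 0 and 1 of them in this order (10.9% of all genes). Of the 19 bipolar cell genes 18 lay lower with roxadustat than with DMOG, among them all 6 of these, and the list's median was -0.13. The short-wave cone opsin Opn1sw was at 159 FPKM (129 to 184) with DMOG and 176 (154 to 201) with roxadustat, a difference of 0.17 (95% interval -0.01 to 0.36), and roxadustat exceeded PBS by 0.45 ± 0.09 (adjusted p = 0.00765). In bulk RNA fewer cells of a type and less RNA per cell cannot be told apart.

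The lists for vessel and immune cells gave no calls either, and genes outside these lists were not counted here. Of 16 endothelial, 9 pericyte and 17 microglial genes none passed in limma (0, 2 and 0 at an unadjusted p under 0.05), and their medians were 0.16, 0.26 and -0.06. Of the 7 red cell, 3 neutrophil and lymphocyte, 4 muscle, 2 liver and 8 cornea, ciliary body and sclera genes that passed the filter, none was called (0, 2, 0, 2 and 2 at an unadjusted p under 0.05). Of 13 gliosis genes 1 rose (background 0.98%): Fgf2, a survival factor for photoreceptors (0.78 ± 0.15, adjusted p = 0.00631, limma), from a median of 1.59 FPKM with DMOG to 3.06 FPKM with roxadustat. Its PBS libraries ranged from 1.45 to 3.5 FPKM.

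Genes of neighbouring eye tissues stood higher with roxadustat than with DMOG without passing the test. All 23 lens genes had a positive difference with a median of 1.79, and 0 were called by limma (12 at an unadjusted p under 0.05). Cryaa ranged from 6.39 to 625 FPKM with DMOG and from 111 to 5734 with roxadustat, and all 23 lens genes lay lower with DMOG than with PBS, 19 of them called. The 15 tested pigment epithelium and melanocyte genes had a median of 0.49 with 13 positive and 0 called (6 at an unadjusted p under 0.05), and their sums were 491 to 690 FPKM with DMOG and 590 to 742 with roxadustat. The part of these tissues in the contrast was tested only by adding each level as a term: with the lens term 121 genes were called (100 higher), and with the pigment epithelium term 182 (118 higher). Of the 135 higher calls, 95 and 92 were kept.

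**Figure D4:**
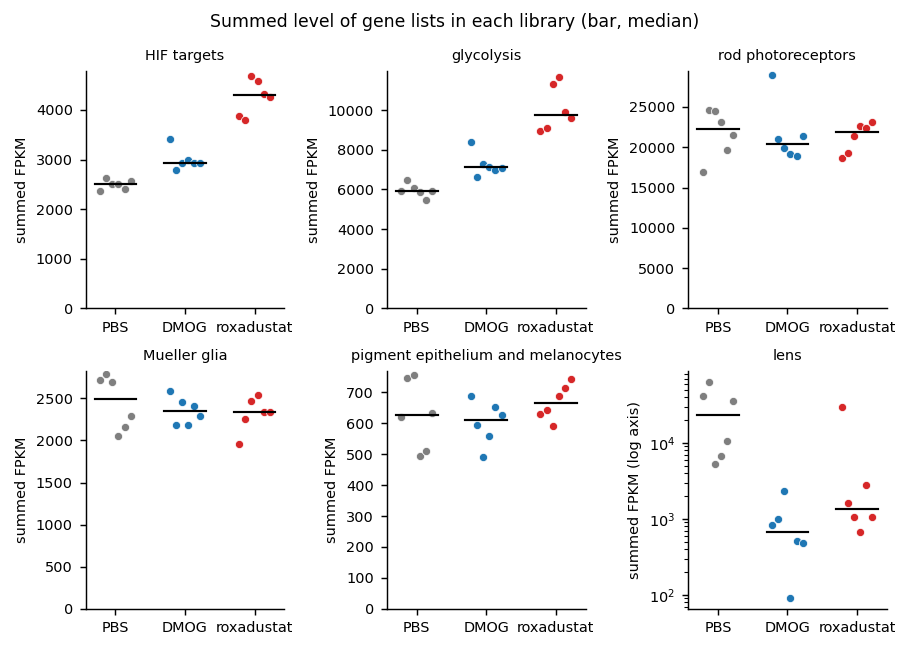
Summed FPKM of 6 gene lists in each library by treatment (points; bar, median), with a log axis for lens only. HIF target and glycolysis sums separate the 3 groups, rod and Mueller glia sums overlap, and the lens sums are highest with PBS and, within roxadustat, in replicate 1 at 30030 FPKM.

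Other stress and regulatory programmes gave few calls. By limma 0 of 20 immediate early, 24 unfolded protein and integrated stress, 14 heat shock, 13 interferon, 22 cholesterol synthesis and 17 clock genes were called (1, 2, 1, 1, 1 and 3 at an unadjusted p under 0.05), and list medians lay between -0.03 and 0.12. Single members rose on 4 more lists (background 0.98%): Ddit4, an mTOR inhibitor, of 13 glucocorticoid response genes (0.41 ± 0.09); Sesn1, a sestrin, of 14 p53 targets (0.36 ± 0.06); Plk1, a mitotic kinase, of 25 cell cycle genes (0.34 ± 0.08); and Id1, a target of BMP signals, of 16 iron handling genes (0.38 ± 0.08). Ddit4 is also on the HIF target list. The medians of these 4 lists were 0.12, -0.04, 0.17 and 0.09 in this order. Unadjusted p-values under 0.05 were seen for 4, 2, 5 and 2 of their genes (10.9% of all genes). All of these were higher with roxadustat except 1 p53 target. Of the 25 cell cycle genes, 23 had a positive difference. Leaving out 1 library ended the call of Ddit4 in 3, of Plk1 in 6 and of Id1 in 5 of 18 fits, and that of Sesn1 in 0. The lens term ended the calls of Plk1 and Id1 (adjusted p of 0.101 and 0.124, limma), and the pigment epithelium term those of Ddit4 and Id1 (0.0643 and 0.0837).

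The same pair of inhibitors was also compared in the liver transcriptome (libraries labelled retina), and the contrast differed there. Over 11101 genes tested in both tables, the roxadustat minus DMOG difference was unequal for 310 (2.79%) by a limma test of that gap. It was larger in the retina transcriptome for 127 (1.14%) and smaller for 183 (1.65%). Of 40 HIF targets, 9 had a larger difference in the retina transcriptome and 0 a smaller one. Their median was 0.41 in the retina and -0.10 in the liver transcriptome. Ak4 differed between the inhibitors by 1.72 in the retina and 0.09 in the liver transcriptome (gap 1.64 ± 0.32, adjusted p = 0.00374), Egln1 by 0.64 and -0.06 (gap 0.71 ± 0.19, adjusted p = 0.0372) and Grhpr by 1.25 and 0.32 (gap 0.94 ± 0.18, adjusted p = 0.00374). Slc16a3 was at 1.87 and 1.21, a gap that did not pass (0.66 ± 0.44, adjusted p = 0.477).

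One liver transcriptome library, DMOG replicate 5, weighs on this comparison. Without it 1421 genes were called, and 30 of the 40 HIF targets had a larger difference in the retina transcriptome, where 5.59% of all genes did. The liver median of the HIF targets was then -0.26. Each table was scaled by itself, so only differences within a table enter.

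**Figure D5:**
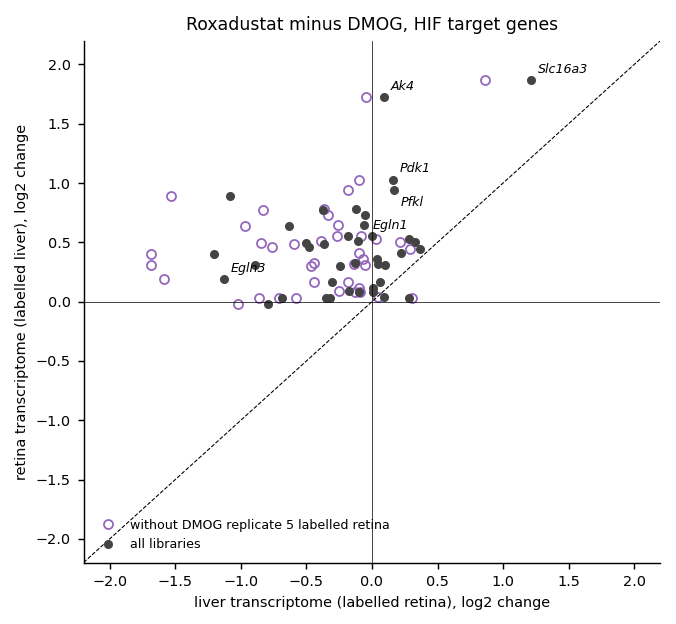
Log2 difference, roxadustat minus DMOG, of 40 HIF target genes in the liver transcriptome (x axis) and the retina transcriptome (y axis), with all libraries (filled) and without DMOG replicate 5 labelled retina (open; this moves the x value only). Most genes lie above the dashed line of equal difference, and Ak4 and Slc16a3 lie highest.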

How the data were processed

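The values are FPKM, computed by the authors. Per the submitters' processing notes, the tools were Cuffdiff 2.2.1, TopHat2 (version 2) and bcl2fastq 1.8.3, on build mm9. RNA was prepared with RNeasy and a stranded TruSeq kit with Ribo-Zero Gold, per the labels' protocols. Library scaling and annotation are not given in the sources used here. The table lists 22558 genes, 25 under spreadsheet dates. The grand total row of the other table was dropped.

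Genes averaging 0.5 FPKM or more in the 18 libraries were fitted as log2(FPKM + 0.5), 3 group means, in limma 3.58.1 (R 4.3.3). Tests were two-sided with a mean trend and 15 residual degrees of freedom, adjusted over all genes. For the tissue difference all 36 libraries entered. The code was tested on simulated data. Named were the 15 highest and 15 lowest called genes with at least 1 FPKM in a group and all roxadustat libraries on 1 side of the DMOG mean (small and unnamed RNAs passed over), the oxygen sensors, Vegfa, Epo, and up to 4 members with the smallest adjusted p of each of 36 lists; other members shown are examples. Members and lists were chosen with earlier results of these data known. Alternatives changed the pseudocount, filter, scaling, model and libraries; lens and pigment epithelium terms were chosen after seeing the data. Figures used matplotlib 3.10.9 under Python 3.11.15.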

Additional observations from a re-analysis of the deposited data

Results flagged for a closer look

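Single libraries stood apart in 12 of 132 checks of a group of 6, where chance gives about 1 in 20. DMOG replicate 1 did so 5 times: for Ak4 (9.71 FPKM, the others 3.93 to 4.77), Dnahc9 (1.17 against 0.661 to 0.784) and the summed levels of HIF targets (3423 against 2783 to 3001), glycolysis (8407 against 6637 to 7263) and rod genes (28913 against 18961 to 21351). In the first 4 of these it lay above the other DMOG libraries, on the side of the roxadustat group. Leaving it out raised the direct count from 181 to 193. Roxadustat replicate 1 held 30030 FPKM of lens genes, the others 681 to 2772. The remaining values were Grhpr in DMOG replicate 2 (12.2 against 16.2 to 18.3 FPKM), Eps8 in PBS replicate 1 (11.2 against 15.9 to 17.9), Kcnj6 in roxadustat replicate 6 (1.34 against 1.64 to 1.77), Hif1an in DMOG replicate 5 (16.1 against 17.8 to 18.5), Hif1a in DMOG replicate 4 (279 against 297 to 307) and Arnt in PBS replicate 1 (6.6 against 8.56 to 9.49).

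For 8 of 27 named genes tested in both tables, the roxadustat minus DMOG difference was not equal in the retina and the liver transcriptome by limma's test of that gap. Of all genes tested in both, 2.79% were called. Most named genes were picked by their large difference in the retina transcriptome, which is part of the gap. Their count is therefore raised by the choice and says nothing about them as a set. The gap was 1.64 for Ak4, 0.94 for Grhpr, 1.09 for Tmem26, 0.93 for Calml4 and 0.71 for Egln1. It was -0.61 for Lrp4, -0.84 for Col5a3 and -0.53 for Slc26a2, the genes that were lower with roxadustat in the retina transcriptome.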

How the results depend on the processing

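With array weights the calls were 607 between the inhibitors (60.1% higher against 74.6%), 551 for DMOG and 512 (57.6% higher against 72.1%) for roxadustat against PBS, and 1432 for the tissue gap. Fitting only the 2 groups compared gave 97 calls for DMOG and 192 for roxadustat against PBS (84.9% higher). The lens term left 1 and 106 (85.8% higher), and the pigment epithelium term 56 and 780 (52.4% higher); it gave 64.8% higher calls between the inhibitors. The tissue gap had 157 calls at a mean of at least 5 FPKM, 107 with a sex term, and 399 after rescaling to an equal total (19.8% larger against 41.0%). Arnt, not called, changed sign when rescaled by the median ratio (0.0012), with the sex term (0.0084) and with the pigment epithelium term (0.020). Leaving out 1 library gave 128 to 263 calls between the inhibitors, 48 to 420 for DMOG and 209 to 482 for roxadustat against PBS, 167 to 1421 for the tissue gap, 14 to 20 HIF targets and 9 to 13 glycolysis genes. Differences for Arnt then ran from -0.039 to 0.028 and for Egln2 from -0.0077 to 0.041. The count moved by over 1.5 times for DMOG against PBS without PBS replicate 1 (78), 2 (63), 4 (420) or 6 (76), DMOG replicate 2 (62), 3 (274), 4 (48), 5 (71) or 6 (61) or roxadustat replicate 2 (91) or 5 (95), for roxadustat against PBS without roxadustat replicate 2 (211) or 3 (209), and for the tissue gap without DMOG replicate 2 (184), 4 (193) or 6 (204) or roxadustat replicate 3 (188) labelled liver, or DMOG replicate 1 (167), 4 (204) or 5 (1421) or roxadustat replicate 4 (185) labelled retina. The cause was not tested. No label says that numbers pair libraries, and same-numbered roxadustat and DMOG libraries correlated by -0.234 to 0.242, with 3 of 6 closest to their own number. With a replicate block 175 genes were called between the inhibitors (123 higher, 150 of them shared), with 18 HIF targets and 10 glycolysis genes, and 383 for the tissue gap; Penk, Psd2, Slc26a2, Cplx2 and Eps8 lost the call. Without read counts, depth sets no interval here, and genes near 0.5 FPKM are the least certain.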

Other observations

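Several genes outside the lists and the naming rule, picked after their values were seen, separated the inhibitors. BC048943 had the smallest adjusted p of the contrast (4.9e-07, limma), with 121 FPKM (115 to 130) with DMOG and 199 (187 to 214) with roxadustat, and a DMOG difference from PBS of 0.04 ± 0.05. The lipid droplet gene Hilpda, listed as 2310016C08Rik, rose by 0.67 ± 0.08, from a median of 18.2 to 28.6 FPKM without overlap. Mif, a cytokine with many pseudogenes, rose by 0.70 ± 0.11, from 599 to 929 FPKM, and Foxred2, an oxidoreductase of protein quality control, by 0.69 ± 0.08.

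Further single genes were picked in the same way. Slc37a4, the glucose 6-phosphate transporter, rose by 0.35 ± 0.06, and Me1, the cytosolic malic enzyme, differed by -0.35 ± 0.07. Iyd, which recovers iodide from thyroid hormone precursors, was at 0.834 FPKM with PBS, 0.228 with DMOG and 0.645 with roxadustat (medians); roxadustat exceeded DMOG by 0.61 ± 0.13, and DMOG differed from PBS by -0.74 ± 0.13 (adjusted p = 0.0091, limma). The call of Iyd between the inhibitors was lost in 4 of 18 fits leaving out 1 library, with the lens term (adjusted p = 0.148) and with the pigment epithelium term (0.0729).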
